A study of Vulpes vulpes with 8 samples.

Results

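Genes of DNA replication and mitosis were followed in the gum of red foxes (Vulpes vulpes) with and without hereditary hyperplastic gingivitis (HHG), an inherited overgrowth of the gingiva. The list held 39 symbols chosen for their role in the cell cycle, and for each gene the probe set with the highest mean over the arrays was used. A probe set with a single symbol was found for 33 of the 39, all of them bright enough to be tested, among 10824 genes tested in all. They comprised all 13 genes of S phase and replication and 20 of the 26 genes of G2 phase and mitosis. MKI67, CCNB1, BUB1, CENPE, KIF20A and MAD2L1 are not listed in the annotation used here and were not analysed.

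Each of the 8 foxes gave 1 piece of gingiva and 1 Affymetrix Canine 2 array, a dog array, so fox RNA was read through dog sequences. The affected group held 5 foxes, males 19, 55 and 107 and females 381 and 757, diagnosed by early signs of red, raised and granular gum along the tooth crowns. Unaffected foxes numbered 3, males 86 and 97 and female 402. Tissue was taken either at pelting, after euthanasia, or in late spring under anaesthesia, per the labels' protocols. The labels give no age, genotype, or season for any one fox, so season and disease cannot be told apart here.

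A cell that divides first licenses its replication origins by loading the ring-shaped MCM helicase, then copies its DNA with deoxynucleotides made by ribonucleotide reductase and thymidylate synthase. It then builds a spindle under the control of cyclin-dependent, Polo and Aurora kinases, and leaves mitosis when the anaphase-promoting complex marks cyclins for destruction. Transcripts of the first step peak around the start of S phase and those of the spindle in G2 phase and mitosis, so both sets are low in resting tissue. In gingiva the dividing cells are mainly keratinocytes of the basal and lowest suprabasal layers, with contributions from lymphocytes, endothelium and fibroblasts.

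All 33 genes were measurable. Background was read on each array from 42 bacterial control probe sets and lay at a signal of 7.42 to 16.6 on the scale of the deposited values, and 32 of the 33 genes exceeded it in every fox. UBE2C exceeded it in 7 foxes, with unaffected fox 86 at background. The 5' beta-actin control, a sign of RNA integrity, split the arrays into 4 high foxes (86, 97, 107 and 757, with 8593 to 9681) and 4 low ones (19, 55, 381 and 402, with 3993 to 4823), each set holding both groups. Markers of the tissue's main cell types were present, with KRT13 and KRT16 the brightest of the suprabasal keratinocyte list and COL1A1 and COL1A2 of the fibroblast list. Of the marker genes measured, MYH2 of skeletal muscle and BPIFA2 of salivary gland were at background in all 8 foxes. AQP5 of the salivary gland list exceeded background in all 8 foxes, and ACTA1 and TNNC2 of the skeletal muscle list in 7 each.

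The main comparison asked whether transcripts of dividing cells differ between the gum of affected and unaffected foxes. Replication genes had mostly slightly lower means in affected foxes (10 of 13, median log2 difference -0.090), and mitosis genes mostly slightly higher ones (15 of 20, median 0.11). Over all genes tested 54.7% had a lower and 45.3% a higher mean in affected foxes, with a median of -0.026. None of the 33 passed the test: limma called 0 of them at an adjusted p under 0.05, against 0% of all genes, and the smallest adjusted p among them was 0.9999. At an unadjusted p under 0.05 there was 1 member, MCM4, lower in affected foxes, where 1.3% of all genes were lower and 1.24% higher at that limit (693 of all 25754 probe sets, 2.69%). Differences ranged from -0.49 to 0.45, and for 30 of the 33 the 95% interval lay inside a doubling or halving, which was so for 82.7% of all genes tested. The 3 exceptions were TOP2A, UBE2C and NDC80. The count of replication genes with a higher mean, 3 in all foxes, was 1 without affected fox 55, 6 in males only and 5 after quantile normalization. That of the mitosis genes, 15 of 20, was 11 without unaffected fox 402 and 12 both in males only and in the high 5' actin set. Some cell type markers also had higher means in affected foxes, 8 of 8 macrophage genes tested (median 0.29) and 8 of 9 suprabasal keratinocyte genes (median 0.65), none of them called by limma. Of these, CD68 of the macrophage list, named after its values were seen, had no overlap of the groups and an unadjusted p of 0.0118 (limma). Over all genes tested, 1.12% separated with affected foxes higher. TIE1 of the endothelium list, also named after its values were seen, separated with affected foxes lower, where 1.32% of all genes did. Its value in affected fox 55, 14.3, was at background. Of the 7 endothelium genes tested 5 had a lower and 2 a higher mean in affected foxes (median -0.15). Summed signals of the 9 macrophage markers measured ran from 1198 to 3721 in affected foxes against 1373 to 3953, and those of the 9 suprabasal keratinocyte markers from 19190 to 43080 against 8642 to 42410. Averaged after centring each gene, the suprabasal genes stood at -2.54 in unaffected fox 86, against 0.49 and 0.68 in foxes 97 and 402. This average differed by 0.60 in the high and 0.063 in the low 5' actin set, by 1.555 in males and by -0.78 in females. The part of these markers in the differences of the 33 genes was not tested. Because each piece is a mixture of cells, fewer dividing cells and less RNA per cell cannot be told apart.

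**Figure D1:**
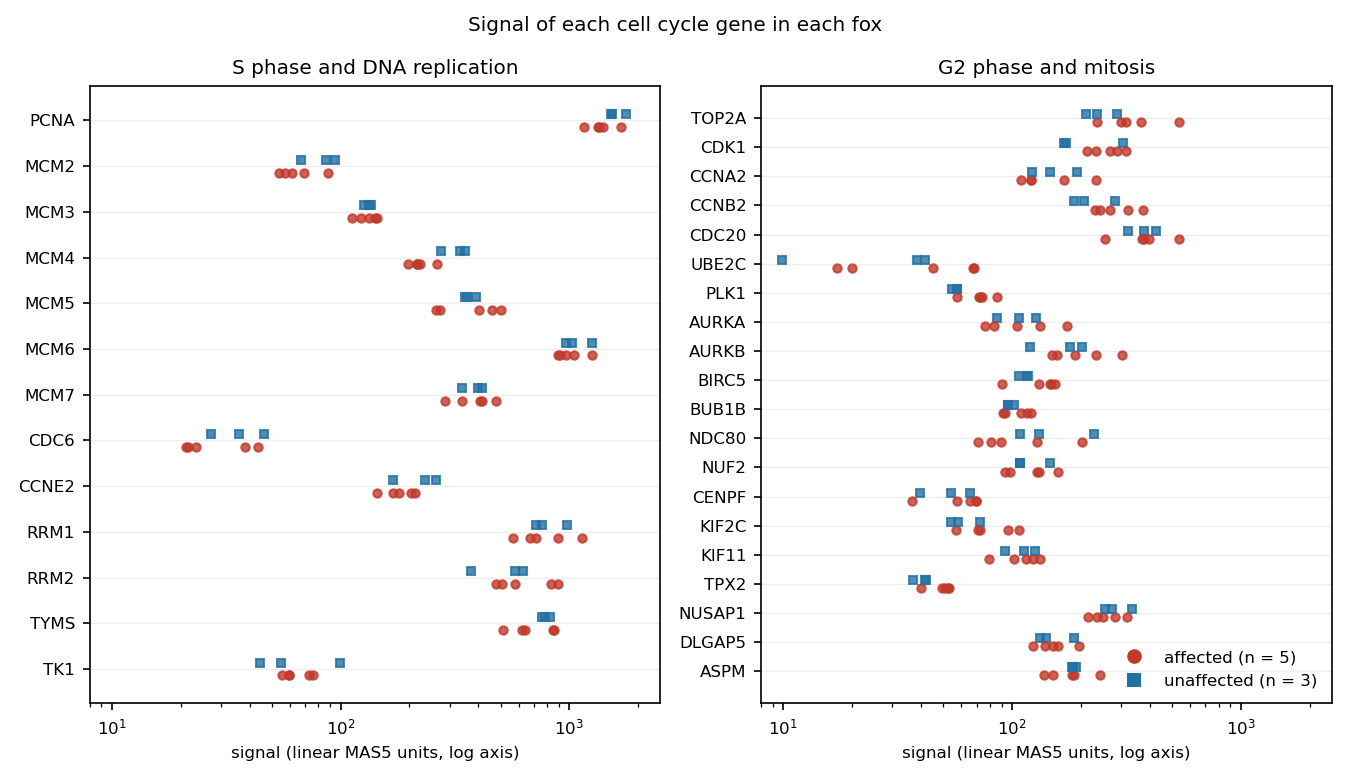
Signal of the chosen probe set of each gene in each fox, on a log axis in linear MAS5 units, with the 13 replication genes on the left and the 20 mitosis genes on the right. Circles are the 5 affected and squares the 3 unaffected foxes, and the groups separate only for MCM4, with all affected foxes lower, and PLK1, with all affected foxes higher.

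Licensing of replication origins came first among the replication genes. MCM4, a subunit of the MCM helicase, read 223, 196, 263, 215 and 215 in affected foxes 19, 55, 107, 381 and 757 and 349.6, 332 and 275 in unaffected foxes 86, 97 and 402. Every affected fox lay below every unaffected fox, with a narrow gap between affected fox 107 and unaffected fox 402. The log2 difference was -0.49 ± 0.17 (SE), with a 95% interval of -0.86 to -0.12, and did not pass the test (limma, adjusted p = 0.9999, unadjusted p = 0.0146). It lay between -0.59 and -0.42 when any 1 fox was left out and was -0.49 in the high and -0.36 in the low 5' actin set. Both other MCM4 probe sets were lower in affected foxes too, by -0.26 and -0.21, with overlapping groups. Separation with affected foxes lower was seen in 1 of the 13 replication genes and in 1.32% of all genes.

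The other subunits of the same ring showed smaller differences. MCM2 read 53.8, 57.0, 88.5, 61.6 and 69.4 in the affected foxes, in the order 19, 55, 107, 381 and 757, and 67.3, 94.2 and 85.9 in unaffected foxes 86, 97 and 402. Affected fox 107 alone reached the upper unaffected foxes, and the difference was -0.27 ± 0.19 (SE). MCM6 averaged 1016 ± 149 (SD, n = 5) in the affected group against 1081 ± 151 (SD, n = 3). MCM3, MCM5 and MCM7 differed by -0.015, 0.0060 and -0.014, each far less than its standard error of 0.15, 0.24 and 0.20. For MCM3 a dimmer second probe set differed by -0.70, from 33.2 ± 13.7 (SD, n = 5) against 62.1 ± 9.54 (SD, n = 3), so that gene's reading depends on the probe set. The MCM proteins work as a ring of equal parts, and the 6 transcripts measured here had a median difference of -0.052.

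CDC6, which loads the MCM ring, read 21.2, 38.1, 43.8, 21.5 and 23.2 in affected foxes 19, 55, 107, 381 and 757 against 46.3, 36.1 and 27.0 in unaffected foxes 86, 97 and 402. The 3 lowest values were those of affected foxes 19, 381 and 757, and the difference was -0.22 ± 0.22 (SE), the same size as in its other tested probe set. CCNE2, a cyclin that drives entry into S phase, had means of 182 ± 26.6 (SD, n = 5) against 222 ± 47.7 (SD, n = 3). PCNA, the sliding clamp of the replicating polymerases, read 1342, 1332, 1685, 1153 and 1407 in the affected foxes against 1759, 1516 and 1532 in the unaffected ones. Of the affected foxes 4 lay below all unaffected foxes and fox 107 among them, for a difference of -0.22 ± 0.17 (SE).

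Of 4 enzymes that make deoxynucleotides or their precursors, 2 had a higher and 2 a lower mean log2 signal in affected foxes. RRM2, the small subunit of ribonucleotide reductase and the one limited to dividing cells, read 475, 889, 831, 577 and 509 in affected foxes 19, 55, 107, 381 and 757 and 624, 577 and 372 in unaffected foxes 86, 97 and 402. Foxes 55 and 107 stood above all unaffected foxes and the other affected ones within their range. The difference of 0.30 ± 0.27 (SE) was 0.081 without unaffected fox 402 and 0.18 without affected fox 55. It was 0.11 in the high and 0.73 in the low 5' actin set. RRM1, the large subunit, differed by -0.066 ± 0.24 (SE), and its other probe sets by -0.33 and 0.091. TYMS, thymidylate synthase, had means of 696 ± 151 (SD, n = 5) against 789 ± 30.0 (SD, n = 3), a difference of -0.20 with -0.24 and -0.31 in its other probe sets. For TK1, the thymidine kinase of S phase, all affected foxes (55.4 to 75.4) lay within the range of the unaffected ones (44.2 to 99.0).

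Regulators of mitotic entry made up the first group of mitosis genes. PLK1, the Polo kinase that drives spindle formation, read 74.0, 86.0, 72.5, 57.5 and 71.5 in affected foxes 19, 55, 107, 381 and 757 and 57.2, 57.4 and 54.8 in unaffected foxes 86, 97 and 402. All affected foxes were higher, but fox 381 exceeded unaffected fox 97 by a margin that is negligible beside the spread. The log2 difference was 0.28 ± 0.16 (SE), with an interval of -0.082 to 0.64 (limma, adjusted p = 0.9999). It ranged from 0.22 to 0.34 with any 1 fox left out. Separation with affected foxes higher was seen in 1 of the 20 mitosis genes and in 1.12% of all genes.

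CDK1, the kinase at the core of mitotic entry, read 288, 234, 269, 212 and 313 in the affected foxes in that order and 305, 169 and 173 in the unaffected foxes. Unaffected fox 86 lay among the highest affected foxes, and the difference was 0.31 ± 0.23 (SE), with -0.047 and 0.10 in the other probe sets. Its partner CCNB2, a B-type cyclin, read 322, 372, 231, 267 and 242 against 205, 187 and 281. Affected foxes 19 and 55 exceeded all unaffected foxes, and the difference was 0.33 ± 0.21 (SE), with 0.097 in the second probe set. CCNA2, the cyclin that spans S and G2 phase, differed by -0.052 ± 0.26 (SE). The Aurora kinases AURKA, of the spindle poles, and AURKB, of the centromeres, differed by 0.041 and 0.26, both with affected fox 55 highest (173 and 302).

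Genes of chromosome and spindle structure followed. TOP2A, the topoisomerase that untangles sister chromatids, read 314, 535, 235, 365 and 298 in affected foxes 19, 55, 107, 381 and 757 and 287, 210.2 and 234 in unaffected foxes 86, 97 and 402. Of the affected foxes 4 exceeded all unaffected foxes while fox 107 lay among them. The difference of 0.45 ± 0.25 (SE), with an interval of -0.10 to 1.01, was the highest of the 33. It was 0.29 without affected fox 55, 0.10 in the high and 0.72 in the low 5' actin set. The second TOP2A probe set showed no such difference (-0.054), with means of 140.1 ± 32.1 (SD, n = 5) and 143 ± 13.6 (SD, n = 3).

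KIF2C, a motor that dismantles microtubule ends at the centromere, read 72.5, 107, 56.8, 96.1 and 71.0 in the affected foxes against 72.2, 54.0 and 57.8. Foxes 55 and 381 were clearly highest, and the difference was 0.30 ± 0.21 (SE), with 0.21 in its second tested probe set and 0.018 in the high 5' actin set. TPX2, which activates Aurora A on the spindle, read 51.1, 49.2, 52.7, 39.9 and 52.5 against 41.8, 36.9 and 41.5. All affected foxes except 381 were above the unaffected range, for a difference of 0.21 ± 0.15 (SE), and the dimmer second probe set differed by -0.022. KIF11, the motor that pushes spindle poles apart, NUSAP1, which bundles spindle fibres, DLGAP5, which stabilises them, and ASPM, a spindle pole protein, differed by -0.014, -0.14, 0.0079 and -0.063.

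Of 7 genes of the checkpoint, the kinetochore and the anaphase-promoting complex, 6 had a higher mean in affected foxes, each by less than its standard error, and NDC80 a lower one. BIRC5, the survivin subunit of the Aurora B complex, had means of 134 ± 25.8 (SD, n = 5) and 114 ± 5.61 (SD, n = 3), with 4 affected foxes above and fox 55 below the unaffected range. BUB1B, a spindle checkpoint kinase, differed by 0.095 ± 0.16 (SE) and CENPF, a kinetochore protein of G2 phase, by 0.13 ± 0.22 (SE). NDC80, the kinetochore's microtubule anchor, read 80.5, 203, 89.7, 70.8 and 128 in the affected foxes and 228, 108 and 130.5 in the unaffected ones. Affected fox 55 and unaffected fox 86 stood apart on the high side, and the difference was -0.42 ± 0.33 (SE), the lowest of the mitosis genes, but -0.023 and -0.0088 in the other probe sets. Its partner NUF2 differed by 0.0018. CDC20, the activator of the anaphase-promoting complex, had means of 388 ± 101 (SD, n = 5) and 374 ± 51.6 (SD, n = 3). UBE2C, the ubiquitin-conjugating enzyme of that complex, differed by 0.35 ± 0.39 (SE), by -0.11 in its second tested probe set and by -0.021 without unaffected fox 86.

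**Figure D2:**
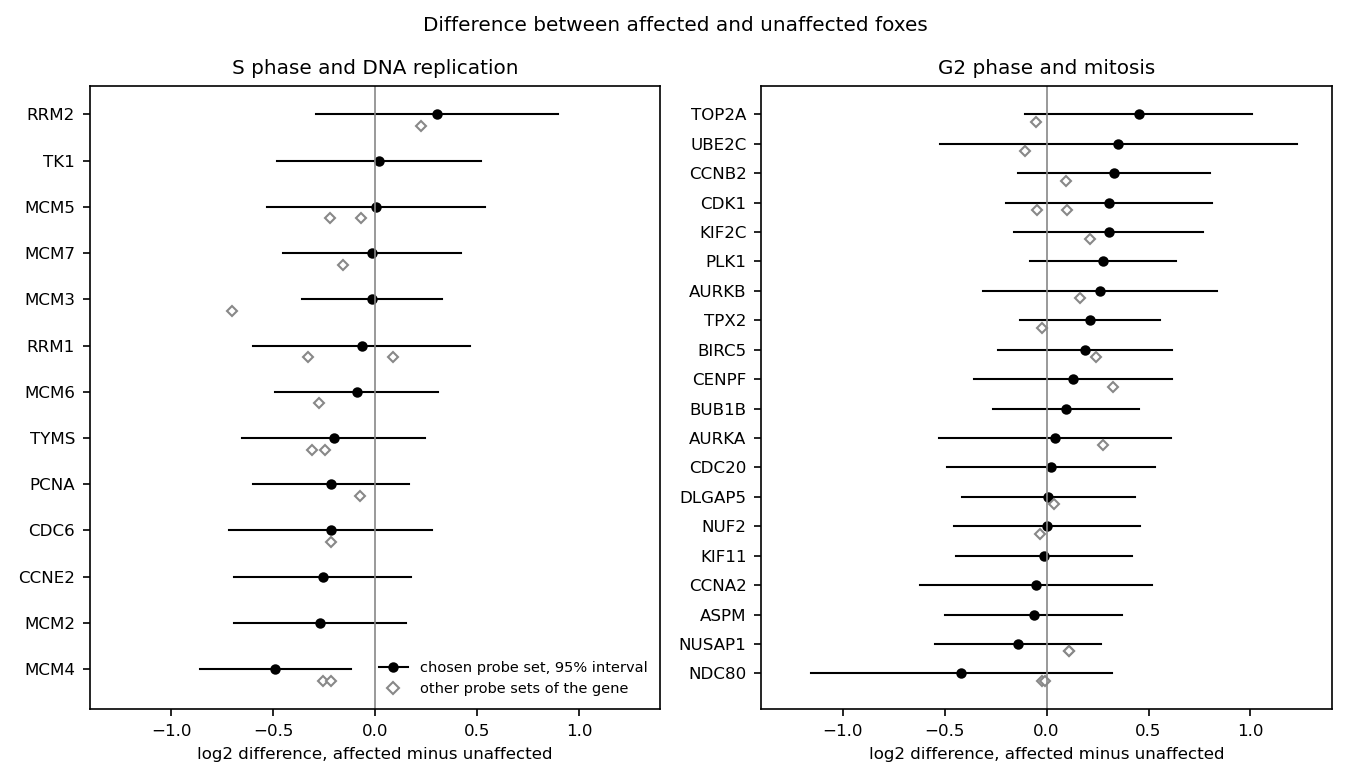
Log2 difference between affected and unaffected foxes for each gene, sorted from high to low, with the 13 replication genes on the left and the 20 mitosis genes on the right. Black points are the chosen probe sets with 95% intervals from limma, and open diamonds are other tested probe sets of the same gene. Only the interval of MCM4 does not include 0, and diamonds fall across 0 from the black point for 8 genes.

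Several probe sets per gene gave a second reading of the same RNA. Of the 64 tested probe sets of the 33 genes, 27 belonged to replication genes, of which 22 had a lower mean in affected foxes, and 37 to mitosis genes, of which 25 had a higher mean. Leaving the chosen probe sets aside, 12 of 14 other replication probe sets were lower (median -0.22) and 10 of 17 other mitosis probe sets were higher (median 0.097). Among the 24 genes with several tested probe sets, 16 had all of them on the same side of 0. The 8 split genes were MCM5, RRM1, CDK1, NUSAP1, TOP2A, UBE2C, NUF2 and TPX2. Probe sets of a gene share the RNA of each fox and are not independent replicates.

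Affected fox 55 led the mitosis genes. A score for each set was the mean of its genes' log2 signals after centring each gene over the 8 foxes. The mitosis score was 0.0079, 0.25, -0.086, 0.012 and 0.033 in affected foxes 19, 55, 107, 381 and 757 and 0.033, -0.14 and -0.11 in unaffected foxes 86, 97 and 402. Affected fox 55 stood alone at the top, highest of all foxes in 10 of the 20 mitosis genes and in 6 of the 13 replication genes, though lowest in 3 and 2 of them. How often this fox was highest over all genes tested was not counted. Its array had the highest background (16.6), with 63.51% of probe sets above it, beside 63.45% in fox 107. It also had the lowest log2 ratio of 5' to 3' actin, -0.84, beside -0.82 in fox 381. The part of array quality in its scores was not tested. Unaffected fox 97 was lowest in 6 mitosis genes. The replication score was -0.087, 0.13, 0.029, -0.11 and -0.18 in the affected foxes in that order and 0.13, 0.081 and 0.0045 in the unaffected foxes. Here affected fox 757 was lowest, and foxes 55 and 86 were level at the top.

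The balance of the sets was described by subtracting the replication score from the mitosis score of each fox. This balance was 0.095, 0.11, -0.11, 0.12 and 0.22 in affected foxes 19, 55, 107, 381 and 757 and -0.099, -0.22 and -0.11 in unaffected foxes 86, 97 and 402. Apart from fox 107, which lay with the unaffected foxes, the affected foxes were above 0 and all unaffected foxes below it. Group means were 0.086 ± 0.12 (SD, n = 5) and -0.14 ± 0.065 (SD, n = 3), a difference of 0.23, which was 0.21 in the high and 0.22 in the low 5' actin set, 0.19 in males and 0.28 in females. Its parts were less even over the actin sets. The mitosis score differed by 0.026 in the high and 0.20 in the low set, and the replication score by -0.18 and -0.025. No test was made of the balance, which was formed after the values were seen. Only 1 unaffected fox belonged to the females and to the low 5' actin set, and it was the same fox.

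**Figure D3:**
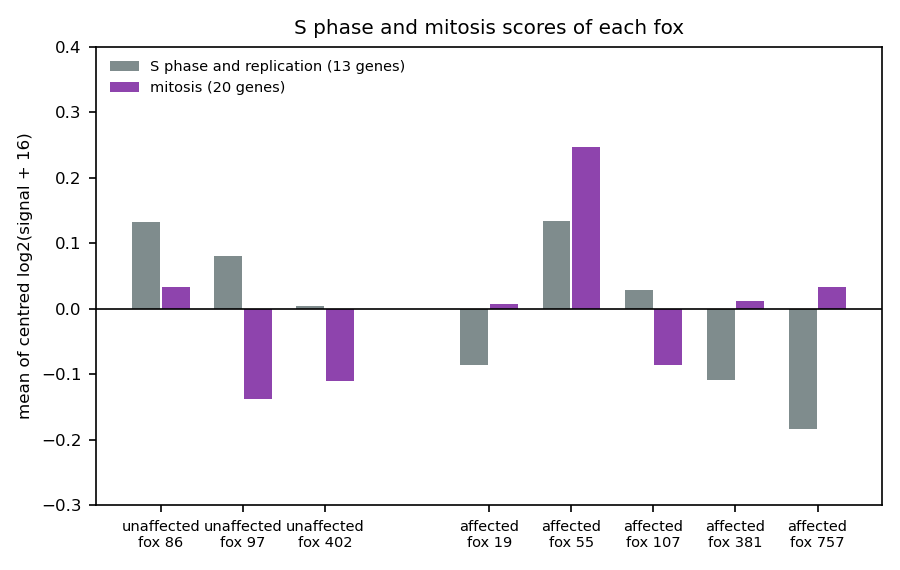
Mean centred log2(signal + 16) of the 13 replication genes (grey) and the 20 mitosis genes (purple) in each fox, unaffected foxes on the left and affected foxes on the right. The grey bar exceeds the purple one in the 3 unaffected foxes and in affected fox 107, and the purple bar is higher in the other 4 affected foxes, with fox 55 highest at 0.25.

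Other genes of the cell cycle, from lists of 145 symbols outside the 39, showed whether these patterns extend. No gene of these lists was called by limma, against 0% of all genes, and at an unadjusted p under 0.05 there was 1 of 125 tested, CDC25B, lower in affected foxes, beside 1.3% of all genes lower and 1.24% higher at that limit. Of 36 other replication genes 30 had a lower mean in affected foxes (median -0.13), on the side of the replication genes above. RFC5, a subunit of the clamp loader, had means of 110 ± 9.94 (SD, n = 5) against 145 ± 18.8 (SD, n = 3), but differed by only -0.073 in its other probe set. CHAF1B, which delivers histones to new DNA, had means of 58.6 ± 13.1 (SD, n = 5) against 81.9 ± 12.2 (SD, n = 3). POLA2 and POLE, subunits of replicating polymerases, differed by 0.23 and 0.27, but the other POLA2 probe set by -0.056.

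Other mitosis genes had mostly lower means. Of 40 such genes 15 had a higher and 25 a lower mean in affected foxes (median -0.049), so 62.5% were lower beside 54.7% of all genes. The median was -0.0024 without unaffected fox 86 and -0.00016 after quantile normalization. TACC3, which stabilises spindle fibres, read 205 to 328 in affected foxes with a median of 216, against 217, 151 and 180 in unaffected foxes, a difference of 0.41 ± 0.22 (SE). SPC24, of the NDC80 complex, differed by 0.31, and by -0.17 in its other probe set. In the other direction NEK2, a centrosome kinase, had means of 83.7 ± 11.5 (SD, n = 5) and 105 ± 5.14 (SD, n = 3). Its groups did not overlap, though its second probe set differed by 0.09. With affected foxes lower, the groups separated in 1 of the 40 other mitosis genes, 1 of the 36 other replication genes and 1.32% of all genes. ZWILCH, a checkpoint protein of the kinetochore, differed by -0.40.

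The list of cyclins, kinases and E2F factors of G1 phase also held CDC25 phosphatases, which act up to mitotic entry, the CDK-activating kinase CDK7 with its cyclin CCNH, and SKP2, which marks a CDK inhibitor for destruction. Of the 16 genes tested 7 had a higher mean in affected foxes (median -0.025). CDK6, a G1 kinase, read 60.3, 71.3, 48.8, 54.3 and 32.1 in affected foxes 19, 55, 107, 381 and 757 and 22.95, 56.5 and 16.8 in unaffected foxes 86, 97 and 402. The groups overlapped through foxes 97 and 757, and the difference was 0.59 ± 0.28 (SE). CDC25C, a phosphatase that activates CDK1, differed by 0.21 and TFDP1, the partner of E2F factors, by -0.22. CDC25B, another such phosphatase, differed by -0.76 ± 0.31 (SE, limma unadjusted p = 0.0365), with unaffected fox 97 at 133 and all other foxes at 20.9 to 43.0.

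In the list of brakes of the cycle and genes of quiescence, 15 of 18 had a lower mean in affected foxes (median -0.19). The list also held MDM2, which is not itself a brake. The median was -0.12 without affected fox 55 and -0.084 in the low 5' actin set. The list's score was lowest in affected fox 55, at -0.33, against -0.11 to 0.12 in the other 7 foxes. That fox also had the highest mitosis score and the lowest fibroblast and basal keratinocyte scores (-0.87 and -0.33), whose part in the mitosis score was not tested. The basal keratinocyte genes were divided in fox 55. TP63 (2.64, at background) and DST (500.5) were the lowest of all foxes there, and ITGA6 (5384) and ITGB4 (817) the highest. Summed signals of the 10 fibroblast markers ran from 10130 to 27600 in affected and from 8512 to 30920 in unaffected foxes, and those of the 6 basal keratinocyte markers measured from 4495 to 7524 and from 4617 to 5922. E2F6, a repressor of E2F targets, and LIN54, of the complex that silences cell cycle genes at rest, differed by -0.24 and -0.44, with LIN54 at background in fox 55. E2F5 and LIN9 differed by 0.44 and 0.23, and the other LIN9 probe set by -0.19. Of 15 subunits and partners of the anaphase-promoting complex 5 had a higher mean (median -0.022), with ANAPC2 and CDC16 at 0.28 and 0.16 and CDC23 and ANAPC13 at -0.40 and -0.25. The other ANAPC2 probe sets stood at -0.21 and 0.061 and that of ANAPC13 at -0.0098, while CDC23 exceeded background in only 3 of the 5 affected foxes.

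**Figure D4:**
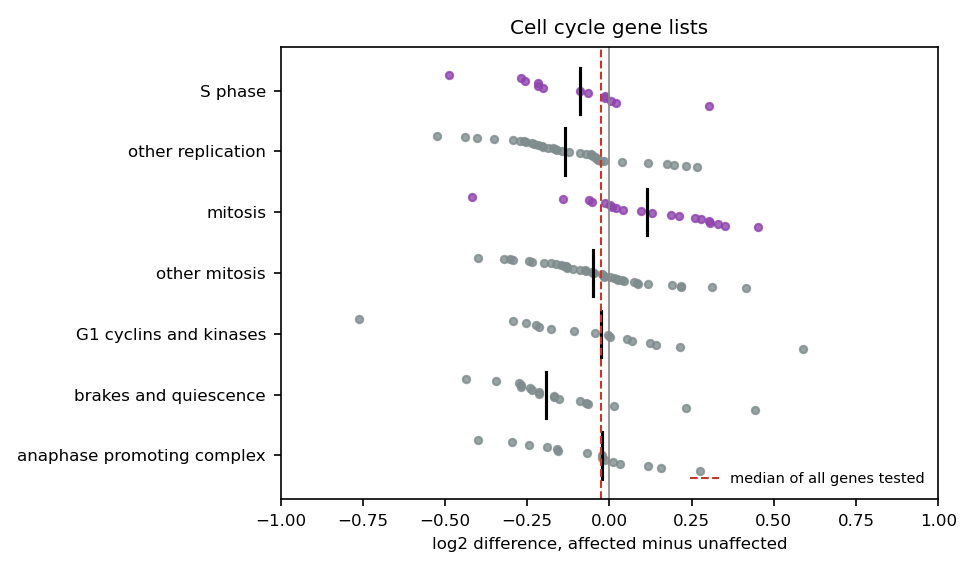
Log2 difference between affected and unaffected foxes for each gene of 7 cell cycle lists, 1 point per gene, with the list median as a black bar and the median of all genes tested as a dashed line. The replication lists and the brakes have medians of -0.090, -0.13 and -0.19, the 20 mitosis genes 0.11 and the other mitosis genes -0.049.

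Sex was the only other label. In a fit with disease as a term, 23 of the 33 genes had a lower mean in females (3 foxes) than in males (5 foxes), 11 of 13 replication and 12 of 20 mitosis genes, where 49.8% of all genes did and 50.2% had a higher one. None of the 33 was called, against 0% of all genes (limma, adjusted p = 0.9999 for the genes named here), and at an unadjusted p under 0.05 there were 0 of the 33, against 0.739% of all genes higher and 1.19% lower in females. RRM2 had means of 486 and 679, CDC6 of 23.9 and 37.1 and DLGAP5 of 132 and 166 in females and males, with log2 differences of -0.48 ± 0.23, -0.38 ± 0.20 and -0.30 ± 0.18 (SE). BIRC5, CCNE2 and UBE2C were the first in the other direction, at 0.20, 0.17 and 0.15. Of all 25754 probe sets 1 was called (0.00388%), and 2.29% had an unadjusted p under 0.05. The probe set called, for EIF2S3, a translation factor, averaged 1.80 in females and 815 in males. A difference of the disease effect between the sexes was called for 0 of the 33 genes, against 0% of all genes, and rests on 1 unaffected female. At an unadjusted p under 0.05 there were 0 of the 33, against 1.79% of all genes with the higher and 0.601% with the lower effect in females, and 2.48% of all probe sets.

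The spread over foxes of the 33 genes was near that of a typical gene, with 35.3% of all genes below the median of the replication set and 43.9% below that of the mitosis set. The SD of log2 signal over the 8 foxes had a median of 0.26 for replication genes (0.10 to 0.40) and of 0.29 for mitosis genes (0.13 to 0.63), against 0.31 for all genes tested. MCM3 and BUB1B varied least, with the highest fox at 1.29 and 1.33 times the lowest. UBE2C and NDC80 varied most, at 6.92 and 3.21 times, UBE2C with its lowest fox at background. Markers of the cells that make up the tissue varied more, with medians of 1.77 for suprabasal keratinocyte, 0.69 for fibroblast, 0.75 for macrophage, 0.97 for T cell and 0.98 for B and plasma cell genes, and 0.40 for basal keratinocyte genes. Over the foxes the T cell score spanned 3.04, the suprabasal keratinocyte score 4.05, the endothelium score 0.85 and the basal keratinocyte score 0.63. The mitosis score spanned 0.39 and the replication score 0.32. These scores average unlike numbers of genes, so their spans are not directly comparable. Unaffected fox 86 had the highest T cell score (1.52) and the lowest suprabasal keratinocyte score (-2.54), beside a mitosis score of 0.033.

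**Figure D5:**
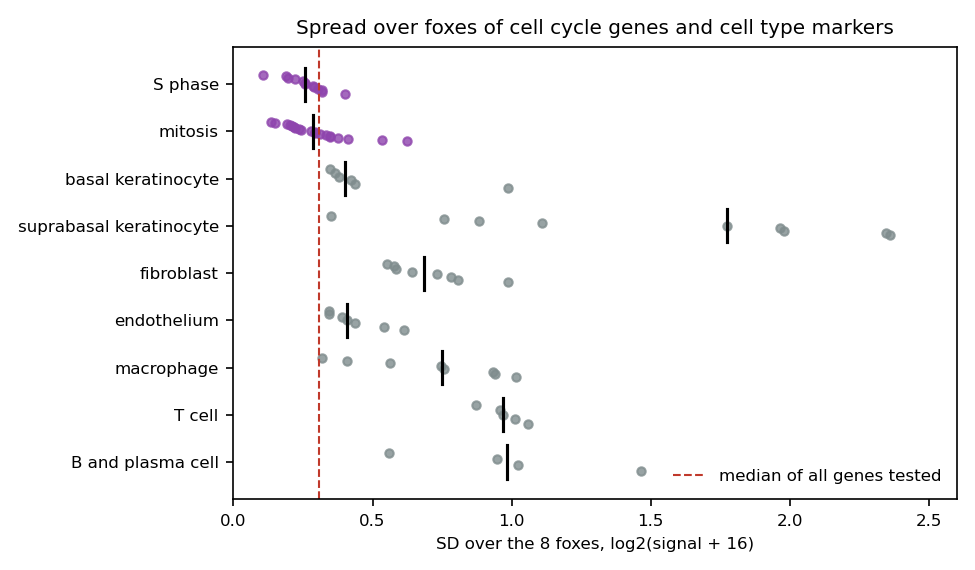
SD over the 8 foxes of log2(signal + 16) for each gene of the replication and mitosis sets (purple) and of 7 lists of cell type markers (grey), with list medians as black bars and the median of all genes tested, 0.31, as a dashed line. Replication and mitosis genes have medians of 0.26 and 0.29, and the suprabasal keratinocyte genes one of 1.77.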

How the data were processed

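Values were the linear intensity of each probe set as the authors deposited it, which the submitters' processing notes name as MAS5 signal. The sources used here give neither its version nor its settings. After trimming 2% at both ends, all 8 arrays averaged 150.0. The table had 43035 probe sets, of which 111 controls were left out. Of the others, 29254 had 1 gene symbol in the platform annotation, 439 several and 13231 none, and genes were named from the first kind only.

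Signals were taken as log2(signal + 16), which shrinks differences of dim probe sets. Means counted as higher or lower are means on this scale, while the group means printed for a gene are of linear signals. Probe sets among the dimmest 40% by mean were dropped, leaving 25754. All of these entered each limma fit (version 3.58.1, R 4.3.3, moderated by eBayes), with p-values adjusted by Benjamini-Hochberg and called under 0.05. The disease fit had no other term, and the sex fit also held disease. The highest probe set stood for each of 10824 genes. The fits were checked on simulated arrays. Background was the 95th percentile of bacterial control probe sets. Precision is limited by the number of arrays, with a median standard error of 0.22 on the log2 scale over genes.

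The members and lists were chosen with earlier results of these data known. All 33 members could be named, from each other cell cycle list up to 2 genes per direction by smallest p, from the sex comparison 3 per direction, and from a marker list the 2 brightest. Genes named as at background, CD68, TIE1, TP63, ITGB4 and EIF2S3 were chosen after their values were seen. Alternatives covered the offset, quantile normalization, the filter, sex as a covariate, males only, array weights, other probe sets and each fox left out. Fits within the 5' actin sets and with the actin ratio as a covariate were added after seeing the data.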

Additional observations from a re-analysis of the deposited data

Results flagged for a closer look

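Among the 33 genes, each screened over the 5 affected foxes for a value far from the others, 1 was picked out, where about 1 in 20 such screens picks a value by chance. TPX2 read 39.9 in affected fox 381, below the other affected foxes at 49.2 to 52.7, with a gap of 0.747 of the group's range.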

How the results depend on the processing

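Limma called 0 of the 33 genes in each alternative, and 0 probe sets between affected and unaffected foxes. The median of the mitosis genes stayed above 0 (0.039 to 0.18) and that of the replication genes below 0 (-0.19 to -0.068) in each alternative. Replication genes with a higher mean numbered 3, but 6 in males only, 5 after quantile normalization and 1 to 4 with 1 fox left out. The median of the G1 list was -0.11 within the high 5' actin foxes, 0.015 within the low ones, 0.022 after quantile normalization and -0.095 to -0.0075 with 1 fox left out. Medians of the other lists ranged from -0.15 to -0.098 for replication, from -0.079 to -0.00016 for mitosis and from -0.26 to -0.084 for the brakes. That of the anaphase-promoting complex was -0.089 within the low 5' actin foxes, -0.081 with all probe sets of a gene averaged and -0.14 to 0.0045 with 1 fox left out. Probe sets called between the sexes numbered 1 to 2 with 1 fox left out. No paired analysis was possible because the foxes of the groups share no number.

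With the chosen probe sets, 15 of the 33 genes kept their direction in 20 alternatives and 18 turned in at least 1. Values that turned were as follows, and the cause was not tested. Within high 5' actin foxes MCM3 was 0.057, MCM5 -0.46, TK1 -0.12, CCNA2 0.22, CDC20 -0.045, AURKA -0.23, AURKB -0.030, NUF2 -0.35, CENPF -0.17, KIF11 0.046, DLGAP5 -0.14 and ASPM 0.033. Within low 5' actin foxes MCM7 was 0.056, KIF11 0.083 and NUSAP1 0.040. With the actin ratio as a covariate MCM5 was -0.12, CCNA2 0.12, AURKA -0.11, NUF2 -0.061 and KIF11 0.066. In males only MCM3 was 0.043, MCM7 0.14, RRM1 0.25, TYMS 0.0038, TK1 -0.18, CDC20 -0.092, NUF2 -0.016 and CENPF -0.077. After quantile normalization MCM3 was 0.053, MCM7 0.0038, CCNA2 0.0026 and KIF11 0.051. With array weights MCM5 was -0.075, CCNA2 0.072, AURKA -0.050, NUF2 -0.020, KIF11 0.041 and DLGAP5 -0.050. With probe sets averaged MCM5 was -0.094, NUF2 -0.016 and NUSAP1 0.026. Other probe sets gave -0.070 and -0.22 for MCM5, 0.091 for RRM1, -0.054 for TOP2A, -0.047 for CDK1, -0.11 for UBE2C, -0.033 for NUF2, -0.022 for TPX2 and 0.11 for both of NUSAP1.

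With 1 fox left out in turn, MCM3 ranged from -0.047 to 0.033, MCM5 from -0.10 to 0.12, MCM6 from -0.17 to 0.018, MCM7 from -0.098 to 0.082, RRM1 from -0.20 to 0.070 and TK1 from -0.17 to 0.29. CCNA2 ranged from -0.21 to 0.11, CDC20 from -0.10 to 0.15, UBE2C from -0.021 to 0.56, AURKA from -0.11 to 0.16, NUF2 from -0.088 to 0.13, CENPF from -0.018 to 0.26, KIF11 from -0.12 to 0.084, DLGAP5 from -0.077 to 0.14 and ASPM from -0.17 to 0.019.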
